A study of Mus musculus with 48 samples.

Results

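A set of 9 genes that mark steps of adult neurogenesis were read out in RNA sequencing counts from the mouse hippocampus: Mki67 and Top2a for dividing progenitors, Eomes and Neurod1 for committed progenitors, and Dcx, Sox11, Igfbpl1, Draxin and Calb2 for immature granule neurons. They were listed by name for these steps, and all 9 of 9 were found among the 57126 gene identifiers of the count table and passed the filter on low counts, which left 16360 genes to test. The 48 libraries are from outbred CD-1 mice aged 2 months, in 8 groups of 6 animals: male and female controls, and males and females exposed to manganese (Mn), lead (Pb) or both metals (Pb+Mn). Dams drank water with 100 ppm Pb, 2 g/L Mn, both or neither, starting 2 weeks before mating and ending at weaning on postnatal day 21, 8 weeks in all, so the offspring had been without added metal since weaning when they were sampled. No genotype or transgene is named for any group. The question put to these genes was whether an early exposure to lead, manganese or the combination went with a different level of the neurogenesis transcripts in the young adult hippocampus.

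New granule neurons are made throughout life in the subgranular zone of the dentate gyrus. Radial glia-like stem cells give rise to Eomes-positive intermediate progenitors, these divide and become neuroblasts that switch on Neurod1, Dcx and Sox11, and the young neurons pass through a stage with the calcium-binding protein calretinin (Calb2) before they mature and express Prox1 and calbindin (Calb1). Developmental lead exposure is known from other work to reduce the number of new cells in the adult rodent dentate gyrus. Cells of these stages are a small part of the hippocampus, and in whole-tissue RNA fewer cells of a type and less RNA per cell cannot be told apart.

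Total counts ranged from about 6273590 to 27639800 per library. The p-values and intervals measure the spread between animals. Exposure was given to the dams and the labels do not state litters, so animals of a group may be littermates. In that case the p-values would be too small and the intervals too narrow. Of the 8 markers of hippocampal regions, none was at 0 in any animal, and the granule neuron factor Prox1 ranged from 54.0 to 185 CPM (a counts-per-million scale, with totals adjusted between libraries by TMM). Markers of neighbouring tissue were also present in every library: the summed level of 8 thalamus genes ranged from 103 CPM in a male Pb animal to 1063 CPM in a male control, and that of 8 choroid plexus genes from 58.5 CPM in a male control to 6750 CPM in a male Pb animal. No gene of those 2 lists was at 0 in any animal. In 3 libraries (male Pb 6, female control 1 and female Pb 2) the counts were tilted towards short transcripts and ribosomal protein genes, with a slope of expression on transcript length under -0.2.

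The promoters of 4 of the genes are shown because these genes formed the pairs that varied together most closely between animals among the division genes (Mki67 and Top2a) and among the neuronal genes (Sox11 and Draxin). Each window holds the 250 bases before the annotated transcript start, read 5′ to 3′ along the gene's strand from the RefSeq table of build GRCm38.p6, and capitals mark matches on either strand to the motifs searched.
Mki67, chr7:135716380-135716629, minus strand: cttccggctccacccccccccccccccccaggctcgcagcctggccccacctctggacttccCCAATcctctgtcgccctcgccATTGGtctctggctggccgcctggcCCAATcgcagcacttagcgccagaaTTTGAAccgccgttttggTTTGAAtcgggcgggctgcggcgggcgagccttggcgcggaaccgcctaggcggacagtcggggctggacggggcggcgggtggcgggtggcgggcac
Top2a, chr11:99024190-99024439, minus strand: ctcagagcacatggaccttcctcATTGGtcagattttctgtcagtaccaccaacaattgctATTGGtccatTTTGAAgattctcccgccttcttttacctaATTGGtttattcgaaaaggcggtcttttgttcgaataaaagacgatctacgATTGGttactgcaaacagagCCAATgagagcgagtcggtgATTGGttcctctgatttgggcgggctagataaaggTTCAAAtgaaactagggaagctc
Sox11, chr12:27342719-27342968, minus strand: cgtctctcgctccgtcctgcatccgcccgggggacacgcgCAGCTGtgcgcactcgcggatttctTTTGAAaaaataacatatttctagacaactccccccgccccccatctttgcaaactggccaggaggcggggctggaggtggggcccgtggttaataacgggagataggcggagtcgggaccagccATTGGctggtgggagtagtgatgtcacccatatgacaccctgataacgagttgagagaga
Draxin, chr4:148130699-148130948, minus strand: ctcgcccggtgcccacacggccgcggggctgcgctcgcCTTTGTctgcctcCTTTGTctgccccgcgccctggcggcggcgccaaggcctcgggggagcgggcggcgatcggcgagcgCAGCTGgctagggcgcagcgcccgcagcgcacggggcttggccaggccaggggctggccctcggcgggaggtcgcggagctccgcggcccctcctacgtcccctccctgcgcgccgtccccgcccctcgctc
Of the 9 genes, 7 had a window in that table, and 8 motifs were searched: CCAAT together with TTTGAA and TTTAAA, known from promoters of cell cycle genes, CAGCTG and CAGATG, E-boxes of neuronal bHLH factors, ACAAAG and ACAATG, bound by Sox factors, and AGGTGT, bound by T-box factors. The window of Mki67 held 3 matches to CCAAT and 2 to TTTGAA, and that of Top2a held 6 and 2. Over the 32851 windows of the table, 33.8% held CCAAT, 16.0% held TTTGAA and 5.55% held both. The count of 3 or more CCAAT with 2 or more TTTGAA was chosen after the matches were seen and occurred in 18 windows (0.0548%). The Sox11 window held 1 match each to CCAAT and TTTGAA and CAGCTG, and the Draxin window held 1 match to CAGCTG and 2 to ACAAAG, seen as CTTTGT on the printed strand. Among all windows 13.0% held CAGCTG, 16.5% ACAAAG, 12.1% TTTAAA, 14.4% CAGATG, 10.7% ACAATG and 11.8% AGGTGT. No matches overlapped in the 4 windows shown, and a match is a description of the letters and not a bound site.

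Per length, Mki67, Top2a and Eomes were at the bottom of the range, and Neurod1 and Calb2 were at its top. Mean levels over 48 animals, per kilobase of exon, were 0.205 CPM for Mki67 (the proliferation antigen Ki-67), 0.218 CPM for Top2a (DNA topoisomerase II alpha, which untangles chromosomes in mitosis) and 0.223 CPM for Eomes (the T-box factor Tbr2). These 3 did not differ from each other beyond their spread over animals, which ran from 0.112 to 0.401 CPM per kilobase for Mki67. Draxin, a secreted repulsive guidance protein that binds netrin receptors, followed at 0.441 CPM and Dcx, the microtubule-binding protein doublecortin, at 0.833 CPM per kilobase. Igfbpl1, an insulin-like growth factor binding protein-like gene, stood at 1.46, Sox11, a transcription factor of immature neurons, at 2.83, and Neurod1, a bHLH factor needed for new granule neurons, at 5.66 CPM per kilobase. The ranges of neighbours in this order overlapped, as for Dcx (0.411 to 1.86) and Igfbpl1 (0.455 to 3.82 CPM per kilobase). Calb2 had a mean of 22.2 CPM per kilobase and ran from 3.38 to 86.9.

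Several relatives of these genes that adult neurons express were far higher on the same scale. The doublecortin-like kinases Dclk1 and Dclk2 had 31.1 and 9.31 CPM per kilobase against 0.833 for Dcx, and the mature-neuron bHLH genes Neurod2 and Neurod6 had 68.5 and 79.5 against 5.66 for Neurod1. Top2b, the isoform of non-dividing cells, had 6.06 CPM per kilobase and Tbr1, the neuronal relative of Eomes, 8.11. Sox4 and Sox12, the other SoxC genes, were closer to Sox11 at 5.95 and 4.44 CPM per kilobase. Calb1, at 22.5 CPM per kilobase, was level with Calb2 at 22.2.

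**Figure D1:**
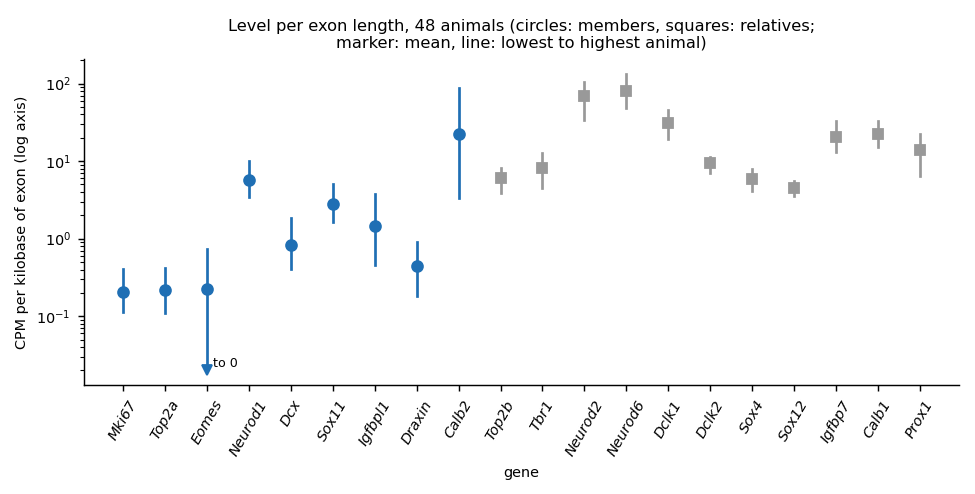
Level of the 9 genes (circles) and of relatives (squares), in CPM per kilobase of exon on a log axis; markers are means over 48 animals and lines run from the lowest to the highest animal, with the arrow of Eomes standing for a lowest value of 0. Mki67, Top2a and Eomes lie near 0.2 and Calb2 reaches 86.9.

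Counts behind these levels were smallest for Eomes, Top2a, Draxin and Mki67 and limit their precision. Mki67 had 10 to 57 counts per library (median 33), Top2a 9 to 56 (median 29.5) and Draxin 14 to 75 (median 32). Eomes had 0 to 45 counts with a median of 12, and the male control at 0 counts allows up to 3 counts in that library. The within-group SD of log2 CPM was 0.45 for Mki67 and 0.41 for Top2a, larger than that of 51.1% and 35.2% of genes of like level. Dcx, Sox11 and Neurod1 had SDs of 0.39, 0.34 and 0.34, above those of 85.4%, 85.8% and 81.9% of like genes. The spread was widest for Eomes (1.00, above 95.3% of like genes), Calb2 (0.96, above 99.8%) and Igfbpl1 (0.65, above 92.5%). Calb2 differed 25.7-fold between its highest and lowest animal. The 8 groups held between 6.23% (Mki67) and 20.4% (Top2a and Igfbpl1) of the variance of the 9 genes, where the median gene tested had 14.2% and equal groups give 14.9% on average.

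None of the 9 genes passed the adjusted threshold of 0.05 in any of 19 comparisons (edgeR's quasi-likelihood test, Benjamini-Hochberg over 16360 genes), and none did with DESeq2 or limma voom. Within each sex these set the exposures against control and Pb+Mn against either metal alone, and they included the interactions of Pb with Mn and of sex with exposure, the sex difference in controls, and 3 averages over the 8 groups (24 against 24 animals) for lead, manganese and sex. At an unadjusted p under 0.05, there were 3 of the 9 genes in the lead average (3.78% of all genes), 1 in female Pb+Mn against female Mn (2.55%) and 1 in the sex average (7.45%). No gene separated any exposed group from its controls: in all 54 contrasts of a gene and an exposed group, animals of the groups overlapped. For all genes tested, the share without overlap was 0.11% in male Mn, 0.202% in male Pb, 0.177% in male Pb+Mn, 0.0856% in female Mn, 0.0306% in female Pb and 0.0733% in female Pb+Mn.

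**Figure D2:**
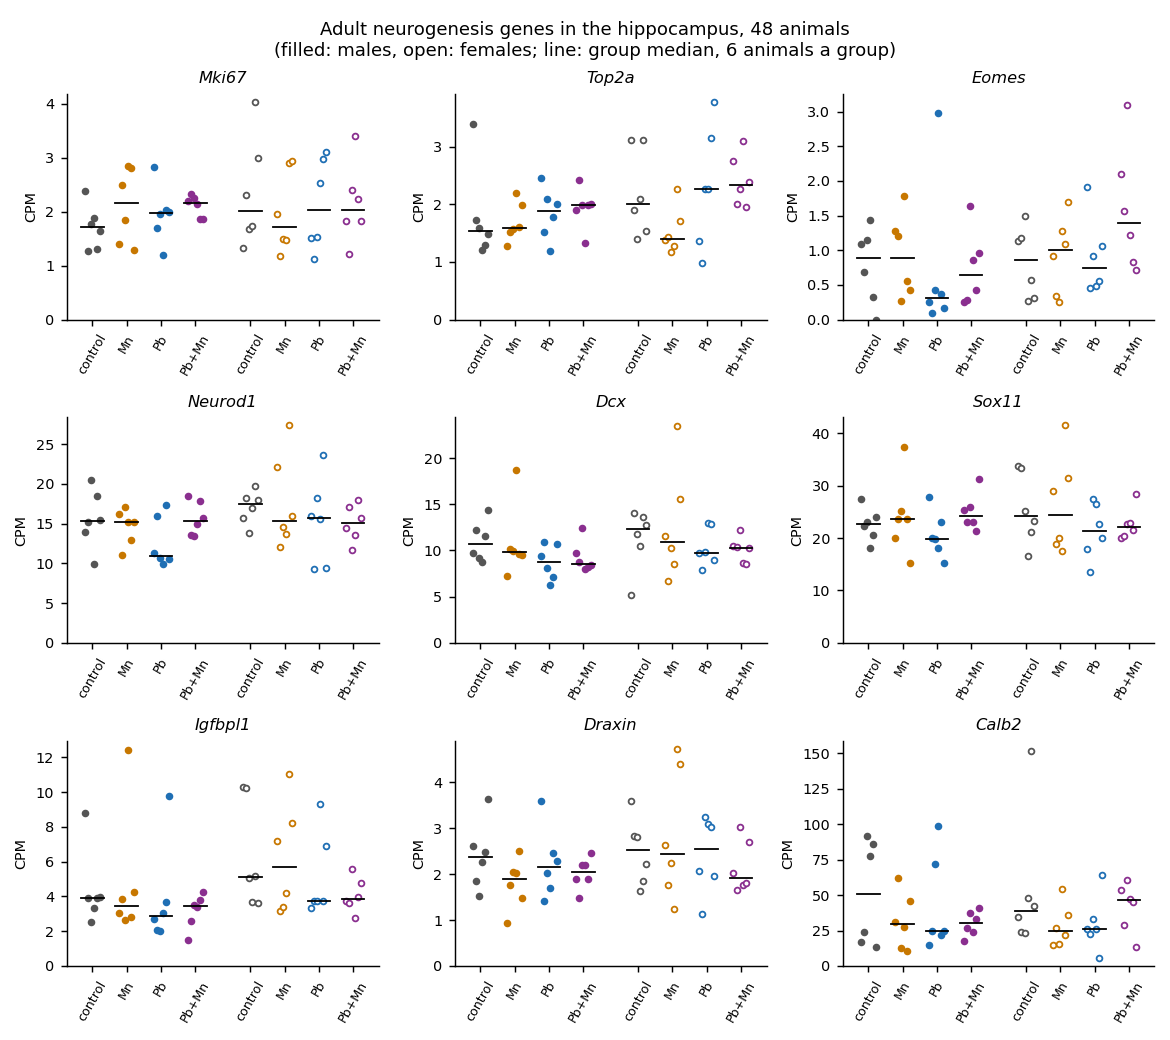
Level of each gene in CPM (vertical axes, from 0) in every animal of the 8 groups, males filled and females open, with lines at the group medians of 6 animals. The groups overlap for every gene, and single high animals stand apart, such as the female control at 151 CPM of Calb2.

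The Ki-67 gene did not differ between groups beyond its spread. Group medians of Mki67 lay between 1.71 CPM in male controls and 2.17 CPM in male Pb+Mn, and single animals ranged from 1.13 CPM in a female Pb animal to 4.03 CPM in a female control. All 6 male Pb+Mn animals, at 1.86 to 2.33 CPM, were above the male control mean of 1.71 CPM, although the male controls reached 2.38 CPM. The log2 fold change was 0.34 (SE 0.26, unadjusted p = 0.199, edgeR's quasi-likelihood test) for that contrast and 0.08 (95% interval -0.18 to 0.34) for the lead average.

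Top2a had its highest medians in the female groups given lead and its lowest in female Mn. In males, the lowest, median and highest values of Top2a were 1.21, 1.53 and 3.40 CPM in controls, 1.28, 1.59 and 2.19 CPM in Mn, 1.19, 1.89 and 2.45 CPM in Pb, and 1.33, 1.99 and 2.42 CPM in Pb+Mn. In females they were 1.40, 2.00 and 3.12 CPM in controls, 1.18, 1.40 and 2.27 CPM in Mn, 0.98, 2.26 and 3.77 CPM in Pb, and 1.95, 2.33 and 3.10 CPM in Pb+Mn. Male control 1, at 3.40 CPM, lay above every other male, and the female Pb+Mn animals overlapped female Mn through the highest Mn animal alone, the other Mn animals being at or below 1.70 CPM. The log2 fold change of female Pb+Mn against female Mn was 0.68 (SE 0.25, unadjusted p = 0.00852, adjusted p = 1.00, edgeR's quasi-likelihood test), in a comparison where 2.55% of all genes had an unadjusted p under 0.05. It stayed between 0.57 and 0.77 with any 1 of the 12 animals left out. Against female controls, Pb+Mn differed by 0.18 (SE 0.24) and Mn by -0.50 (SE 0.26) on the log2 scale.

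Averaged over the groups, animals given lead had 1.20 times the Top2a level of animals without it (95% interval 1.01 to 1.43, log2 fold change 0.27, SE 0.12, unadjusted p = 0.0356, adjusted p = 1.00, edgeR's quasi-likelihood test). The direction was the same in the 4 contrasts that make up this average, at 0.08 for male Pb against control (0.34 without male control 1), 0.21 for male Pb+Mn against Mn, 0.09 for female Pb against control and 0.68 for female Pb+Mn against Mn. Above the mean of their controls were 3 of 6 male Pb, 5 of 6 male Pb+Mn, 4 of 6 female Pb and 4 of 6 female Pb+Mn animals. The unadjusted p was under 0.05 in 36 of 48 fits that each left out 1 animal, with values between 0.22 and 0.33, and the average was 0.32 (SE 0.12) without the 3 tilted libraries.

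Eomes was too low and too variable to place the groups in order. Medians of Eomes ran from 0.31 CPM in male Pb to 1.39 CPM in female Pb+Mn, and single animals from 0 CPM in a male control to 3.10 CPM in a female Pb+Mn animal. In male Pb, 5 animals were at or below 0.434 CPM and male Pb 4 was at 2.98 CPM. The log2 fold change of male Pb against control was -0.48 (SE 0.62) with that animal and -1.69 without it, where the unadjusted p was 0.0142 (edgeR's quasi-likelihood test). In the lead average the change of Eomes was 0.00 with it and -0.30 without it. Female Pb+Mn against female control gave 0.93 (95% interval -0.14 to 2.01), with 5 of 6 animals above the control mean.

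Neurod1 had its lowest group median in male Pb. Its lowest, median and highest values were 9.88, 15.3 and 20.5 CPM in male controls, 11.1, 15.2 and 17.1 CPM in male Mn, 9.88, 11.0 and 17.4 CPM in male Pb, and 13.4, 15.4 and 18.5 CPM in male Pb+Mn. In females the medians were 17.5, 15.3, 15.7 and 15.1 CPM in the same order, within a range of 9.27 to 27.5 CPM. In male Pb, 4 of 6 animals were below the control mean of 15.6 CPM, and the ranges overlapped. The change was -0.31 against male controls (SE 0.19, unadjusted p = 0.107) and 0.31 for male Pb+Mn against male Pb (SE 0.19, unadjusted p = 0.101, edgeR's quasi-likelihood test). With the mean of 14 dentate granule neuron genes as a covariate, the first of these was 0.09, and without the 3 tilted libraries they were -0.25 and 0.25. The lead average was -0.14 (95% interval -0.33 to 0.05).

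Doublecortin was lower on average in animals given lead, without passing the adjusted threshold. The lowest, median and highest values of Dcx in males were 8.75, 10.6 and 14.4 CPM in controls, 7.18, 9.78 and 18.7 CPM in Mn, 6.22, 8.73 and 10.9 CPM in Pb, and 8.00, 8.56 and 12.4 CPM in Pb+Mn. In females they were 5.19, 12.3 and 14.1 CPM in controls, 6.70, 10.9 and 23.5 CPM in Mn, 7.91, 9.76 and 13.0 CPM in Pb, and 8.57, 10.3 and 12.2 CPM in Pb+Mn. All medians of the groups with lead were below those of the groups of the same sex without it, while the ranges overlapped throughout. No male Pb animal (0 of 6) exceeded the male control mean of 11.0 CPM, and 1 of 6 male Pb+Mn, 2 of 6 female Pb and 1 of 6 female Pb+Mn animals exceeded the mean of their controls. Above the control median were 2 of 6 male Pb, 1 of 6 male Pb+Mn, 2 of 6 female Pb and 0 of 6 female Pb+Mn animals. The 2 highest animals of all, at 18.7 and 23.5 CPM, had manganese alone, and the lowest, at 5.19 CPM, was female control 1, which is among the 3 libraries tilted towards short transcripts.

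The lead average of Dcx was 0.847-fold (95% interval 0.727 to 0.986, log2 fold change -0.24, SE 0.11, unadjusted p = 0.0325, adjusted p = 1.00, edgeR's quasi-likelihood test). Of all 16360 genes, 3.78% had an unadjusted p under 0.05 in this comparison, 2.32% with a higher and 1.46% with a lower level, and 0 passed the adjusted threshold, against 4 with DESeq2 and 0 with limma voom. Its contrasts were -0.29 in male Pb against control, -0.22 in male Pb+Mn against Mn, -0.13 in female Pb against control and -0.32 in female Pb+Mn against Mn, each with an SE of 0.22. None of these had an unadjusted p under 0.05 on its own, and the sex by Pb interaction was 0.17 (95% interval -0.46 to 0.79). The average kept an unadjusted p under 0.05 in 45 of 48 fits that left out 1 animal, with values from -0.27 to -0.18, and missed it without male Pb 4, male Mn 4 or female Mn 5. A pair of its contrasts rested on 1 animal each, being -0.00 for male Pb+Mn against Mn without male Mn 4 and -0.09 for female Pb+Mn against Mn without female Mn 5. Without the 3 tilted libraries it was -0.27 (SE 0.10), with the transcript length slope as a covariate -0.20 (SE 0.09), and with the granule neuron genes as a covariate -0.17 (SE 0.10, unadjusted p = 0.113, edgeR's quasi-likelihood test). In the same average all 20 ribosomal protein genes were above 0, with a median of 0.20, and the 8 choroid plexus genes had a median of 0.74. The summed level of the choroid plexus genes had a median of 1590 CPM in male Pb and 238 CPM in male controls. It was 1407 CPM in male Pb+Mn and 686 CPM in male Mn. In females it was 881 CPM in Pb, 469 CPM in controls, 974 CPM in Pb+Mn and 512 CPM in Mn. The part of these in the result was not tested.

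Neither Sox11 nor Draxin had an unadjusted p under 0.05 in any comparison (edgeR's quasi-likelihood test). Medians of Sox11 ran from 19.9 CPM in male Pb to 24.5 CPM in female Mn, with single animals from 13.5 to 41.6 CPM. The largest contrasts with control or with 1 metal were -0.26 (95% interval -0.64 to 0.13) in female Pb against control and 0.27 (-0.11 to 0.65) in male Pb+Mn against Pb for Sox11, and -0.35 (-0.93 to 0.22) in male Mn against control and -0.36 (-0.90 to 0.17) in female Pb+Mn against Mn for Draxin. The lead average was -0.14 (95% interval -0.33 to 0.06) for Sox11 and -0.05 (95% interval -0.33 to 0.22) for Draxin. Medians of Draxin ran from 1.90 CPM in male Mn to 2.55 CPM in female Pb, and its highest animal, a female Mn animal, was at 4.71 CPM. The lead interval of Sox11 ran from 0.797-fold to 1.04-fold, so it held no change as well as a decrease to 0.797-fold.

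Igfbpl1 had a long upper tail in every group but the 2 given both metals. Its lowest, median and highest values in males were 2.54, 3.91 and 8.82 CPM in controls, 2.63, 3.44 and 12.4 CPM in Mn, 2.02, 2.89 and 9.78 CPM in Pb, and 1.48, 3.44 and 4.26 CPM in Pb+Mn. In females they were 3.61, 5.12 and 10.3 CPM in controls, 3.18, 5.67 and 11.1 CPM in Mn, 3.33, 3.77 and 9.30 CPM in Pb, and 2.74, 3.84 and 5.57 CPM in Pb+Mn. The highest male in 3 of the male groups stood well clear of the others, and no Pb+Mn animal of either sex exceeded the mean of its controls, 4.41 CPM in males and 6.34 CPM in females. In each sex 1 of 6 Pb+Mn animals exceeded the control median. The lead average was 0.752-fold (95% interval 0.572 to 0.990, log2 fold change -0.41, SE 0.20, unadjusted p = 0.0417, adjusted p = 1.00, edgeR's quasi-likelihood test).

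This lead average of Igfbpl1 depended on which high animals were included. It was -0.28 without male Mn 4 (12.4 CPM) and -0.56 without male Pb 6 (9.78 CPM), and 29 of 48 such fits had an unadjusted p under 0.05. Without the 3 tilted libraries, of which male Pb 6 is 1, it was -0.51 (SE 0.19). Male Pb against control was -0.09 (SE 0.40) with male Pb 6 and -0.68 without it. Male Pb+Mn against Mn was -0.61 (SE 0.41) with male Mn 4 and -0.09 without it.

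Calb2 varied more between animals of a group than between groups. Its medians ran from 24.4 CPM in female Mn to 50.7 CPM in male controls, and single animals from 5.90 CPM in female Pb 5 to 151 CPM in female control 5. The largest change was -0.91 (95% interval -1.94 to 0.12) in female Mn against control, and it was -0.29 without female control 5. In female Pb against control the change was -0.86 with that animal and -0.23 without it, and in female Pb+Mn it turned from -0.36 to 0.27. The manganese average was -0.41 (95% interval -0.92 to 0.10). The summed level of the 8 thalamus genes also varied, from 152 to 1063 CPM in male controls (median 408), 162 to 591 CPM in male Mn (178), 103 to 798 CPM in male Pb (220) and 230 to 339 CPM in male Pb+Mn (287). In females it ran from 163 to 796 CPM in controls (median 321), 157 to 455 CPM in Mn (228), 149 to 441 CPM in Pb (212) and 149 to 570 CPM in Pb+Mn (399). Its part in the values of Calb2 was not tested.

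**Figure D3:**
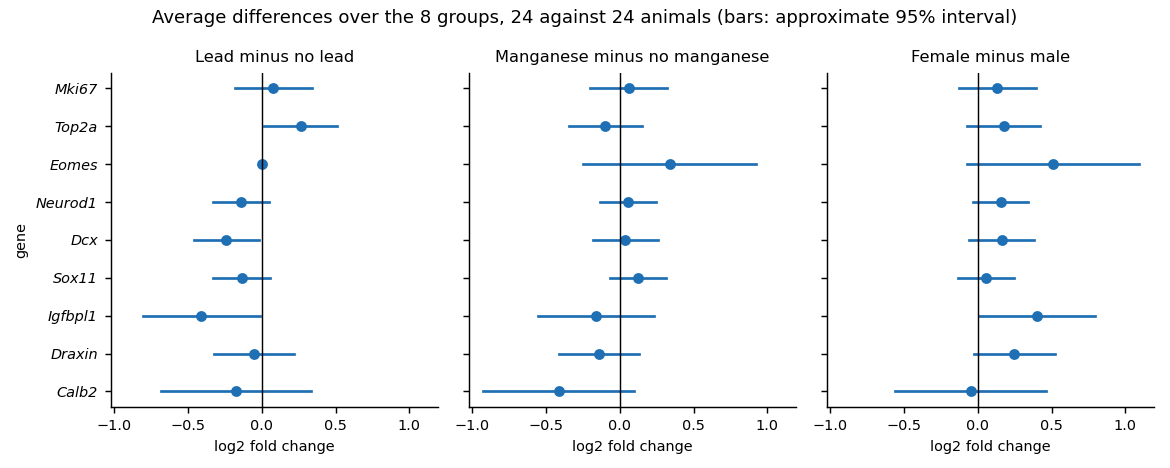
Average log2 fold changes of the 9 genes for lead, manganese and sex (24 against 24 animals each), with approximate 95% intervals as bars; Eomes in the lead panel, at 0.00, has no interval because none was computed for changes under 0.01 in size. In the lead panel the bars of Dcx and Igfbpl1 lie below 0 and that of Top2a above it.

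As a group, the 9 genes had a median log2 fold change of -0.14 in the lead average, 6 below and 3 above 0. Eomes, which rounds to 0.00, was counted among the 3 above. All genes tested had a median of 0.00 with 52.1% above 0. The genes were measured in the same animals and vary together between them, so their signs are not independent. In the manganese average no gene had an unadjusted p under 0.05 (edgeR's quasi-likelihood test), in a comparison where 9.74% of all genes did (2.95% higher, 6.8% lower), 1 gene (0.00611%) passed the adjusted threshold, and the median of the 9 was 0.04. Within sexes, 7 of 9 were below 0 in male Pb, female Pb and female Pb+Mn, 5 of 9 in male Pb+Mn and male Mn, and 4 of 9 in female Mn. These contrasts share the control animals of each sex. None of the 9 had an unadjusted p under 0.05 in any of the 6, where the shares over all genes were 12.5% in male Pb, 2.18% in female Pb, 1.64% in female Pb+Mn, 2.93% in male Pb+Mn, 2.25% in male Mn and 2.62% in female Mn. The median SE over all genes was 0.16 in these contrasts, against 0.19 for Neurod1 and Sox11, 0.22 for Dcx and 0.37 to 0.62 for Igfbpl1, Calb2 and Eomes.

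None of the 9 had an unadjusted p under 0.05 in an interaction or in the other contrasts of Pb+Mn with 1 metal. The closest was Calb2 in the Pb by Mn interaction of females, at 1.41 (SE 0.72, unadjusted p = 0.0567, edgeR's quasi-likelihood test). In that comparison 3.09% of all genes had an unadjusted p under 0.05, and the share was 13.7% in the Pb by Mn interaction of males, 0.954% for sex by Mn, 2.07% for sex by Pb and 0.789% for sex by Pb+Mn. The share was 23.8% for male Pb+Mn against Pb, 4.03% for male Pb+Mn against Mn and 3.83% for female Pb+Mn against Pb. For Top2a the same interaction was 0.58 (SE 0.34) and in males 0.13 (SE 0.35). The sex by Pb+Mn interaction of Eomes was 1.19 (95% interval -0.42 to 2.81).

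Between the sexes, 8 of the 9 genes were higher in females on average and 1, Calb2, was lower, with a median of 0.16 beside -0.01 for all genes. Only Igfbpl1 had an unadjusted p under 0.05, at 1.32 times the male level (log2 fold change 0.40, SE 0.20, unadjusted p = 0.0461, adjusted p = 0.669, edgeR's quasi-likelihood test). The 24 females had a median of 4.06 CPM and the 24 males one of 3.44 CPM, with overlapping ranges. It kept an unadjusted p under 0.05 in 21 of 48 fits that left out 1 animal, with values from 0.34 to 0.55. In this comparison 7.45% of all genes had an unadjusted p under 0.05 (3.91% higher in females, 3.55% lower) and 0.104% passed the adjusted threshold. Eomes was 0.51 higher on the log2 scale (95% interval -0.07 to 1.10), Draxin 0.25 (-0.02 to 0.52), Top2a 0.17 (-0.07 to 0.42) and Dcx 0.16 (-0.06 to 0.38). In controls alone the sex difference of Igfbpl1 was 0.56 (SE 0.39) and 0 of the 9 had an unadjusted p under 0.05, where 1.31% of all genes did and 0.0428% passed the adjusted threshold.

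Other genes of the same stages were counted from lists of each stage, beside 2.32% of all genes higher and 1.46% lower in the lead average at an unadjusted p under 0.05. Of 33 tested genes of cell division, 1 was higher and 0 were lower in the lead average at an unadjusted p under 0.05 (edgeR's quasi-likelihood test), with a median of 0.03. That gene was Ccnb1, cyclin B1, at 0.54 (SE 0.22). Of 16 neural stem cell genes and 8 intermediate progenitor genes none was below that p, with medians of 0.04 and 0.08. Of 21 immature neuron genes 1 was lower, the guidance gene Sema3c at -0.18 (SE 0.09), and the median was -0.02. This list includes Neurod2, named above as a mature-neuron gene, so it is not limited to young neurons. Its summed level had a median of 2506 CPM in male controls, where Dcx had one of 10.6 CPM. Of 35 genes of niche signals 2 were higher and 1 was lower: the Hedgehog co-receptor Gas1 at 0.24 (SE 0.08), the VEGF receptor Kdr at 0.21 (SE 0.10) and the BMP antagonist Nog at -0.17 (SE 0.08). None of these lists had a gene past the adjusted threshold in this comparison. Without the 3 tilted libraries, where 4.09% of all genes were higher and 4.56% lower, the counts were 0 higher and 3 lower for cell division, 3 and 0 for neural stem cells, 1 and 0 for intermediate progenitors, 1 and 1 for immature neurons and 5 and 0 for niche signals, and again none passed.

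Among 14 genes of mature dentate granule neurons, 5 were lower and 0 higher in male Pb than in controls at an unadjusted p under 0.05 (edgeR's quasi-likelihood test), with a median of -0.37, while 4.23% of all genes were lower, 8.28% were higher and the median of all was 0.00. Those of smallest p were the matrix gene Npnt at -0.60 (SE 0.18), desmoplakin (Dsp) at -0.72 (SE 0.26) and Prox1 at -0.58 (SE 0.21), each with an adjusted p of 0.343, so none passed the adjusted threshold. Without male Pb 6 and the other 2 tilted libraries, 6 of 14 were lower with a median of -0.33, while 3.1% of all genes were lower and 4.73% higher. In the same contrast 19 of 20 ribosomal protein genes were higher, with a median of 0.63, and 4 of 16 neural stem cell genes were higher, among them Hopx at 0.49 (SE 0.19), Fabp7 at 0.70 (SE 0.29) and Pax6 at 0.32 (SE 0.14). The stem cell genes summed to a median of 1303 CPM in male Pb and 1199 CPM in male controls. Which cells these transcripts came from was not measured, so they cannot be read as stem cells alone. The mean log2 level of the ribosomal genes was 8.21 in male Pb (8.04 without male Pb 6) and 7.68 in male controls, and its part in these changes was not tested. In the lead average 13 of 14 granule neuron genes were below 0, with 1 at an unadjusted p under 0.05 (C1ql3, -0.17, SE 0.08) and a median of -0.10, while 10 of 20 ribosomal genes were higher (2 of 20 without the tilted libraries).

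With manganese, 4 of 33 cell division genes were lower and 0 higher in the average at an unadjusted p under 0.05 (edgeR's quasi-likelihood test), with a median of -0.08, beside 6.8% of all genes lower and 2.95% higher. Without the 3 tilted libraries it was 2 of 33, with a median of -0.03, beside 1.93% lower and 2.16% higher. The 4 included Ccnb1 at -0.73 (SE 0.22), the ubiquitin-conjugating enzyme gene Ube2c at -0.54 (SE 0.18) and the mitotic kinase Pbk at -0.42 (SE 0.19), while Mki67 and Top2a were at 0.06 (SE 0.13) and -0.10 (SE 0.12). Of the niche signals 3 of 35 were higher (4 without the tilted libraries), the Notch ligand Dll1 at 0.28 (SE 0.08), Notch1 at 0.18 (SE 0.06) and Nog at 0.19 (SE 0.08). The stem cell filament gene Nes was at 0.23 (SE 0.08) and the progenitor bHLH gene Nhlh1 at 0.45 (SE 0.15). Without the tilted libraries, 2 of 16 neural stem cell genes were higher and 0 lower at an unadjusted p under 0.05, with a median of 0.06. For the intermediate progenitor genes it was 1 of 8 higher and 0 lower, with a median of -0.003. In the immature neuron list 1 was higher and 3 were lower, among them Mex3b at 0.21 (SE 0.08) and the thymosin Tmsb10 at -0.27 (SE 0.10). None of these passed the adjusted threshold, and each named gene had an adjusted p of 0.498.

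Across animals, several of the 9 genes varied together. Log2 CPM centred on the group means was correlated over the 48 animals for all 36 pairs, with permutation p-values adjusted over the pairs by Benjamini-Hochberg. The closest pair was Sox11 and Draxin (Pearson's r = 0.74, Spearman's rho = 0.74, adjusted permutation p = 0.00036 for both, the smallest the permutations can give). Its r was 0.73 without the 2 animals farthest from the median of Sox11, 0.72 without the 3 tilted libraries, 0.47 in the 24 males and 0.90 in the 24 females. In both sexes the relation was positive and it was numerically closer in females, a difference that was not tested.

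The division genes formed the next pair. Mki67 and Top2a had r = 0.56 and rho = 0.50 (adjusted permutation p = 0.00054 and 0.00468), with r = 0.48 without the 2 farthest animals, 0.62 without the tilted libraries, 0.52 in males and 0.58 in females. Mki67 also went with Dcx (r = 0.53, rho = 0.41, adjusted permutation p = 0.00096 and 0.0165), at 0.45 without the 2 farthest animals, 0.46 without the tilted libraries, 0.34 in males and 0.63 in females. Igfbpl1 went with Sox11 at r = 0.48 and rho = 0.41 (adjusted permutation p = 0.0036 and 0.0165), at 0.35 without the 2 farthest animals, 0.62 without the tilted libraries, 0.20 in males and 0.75 in females. After adjustment for the transcript length slope, r was 0.37 for Mki67 with Dcx and 0.57 for Mki67 with Top2a. It was 0.64 for Igfbpl1 with Sox11 and 0.70 for Sox11 with Draxin, and for Dcx with Neurod1 it fell from 0.37 to 0.10. Calb2 ran against Draxin (r = -0.38, rho = -0.38, adjusted permutation p = 0.0176 and 0.0242), at -0.34 without the 2 farthest animals, -0.48 in males and -0.31 in females. With Sox11 it had r = -0.32 and rho = -0.36 (adjusted permutation p = 0.0505 and 0.0298), and with Eomes r = 0.43 and rho = 0.39 (adjusted permutation p = 0.00748 and 0.0235), the latter at 0.30 without the 2 farthest animals, 0.58 in males and 0.21 in females.

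**Figure D4:**
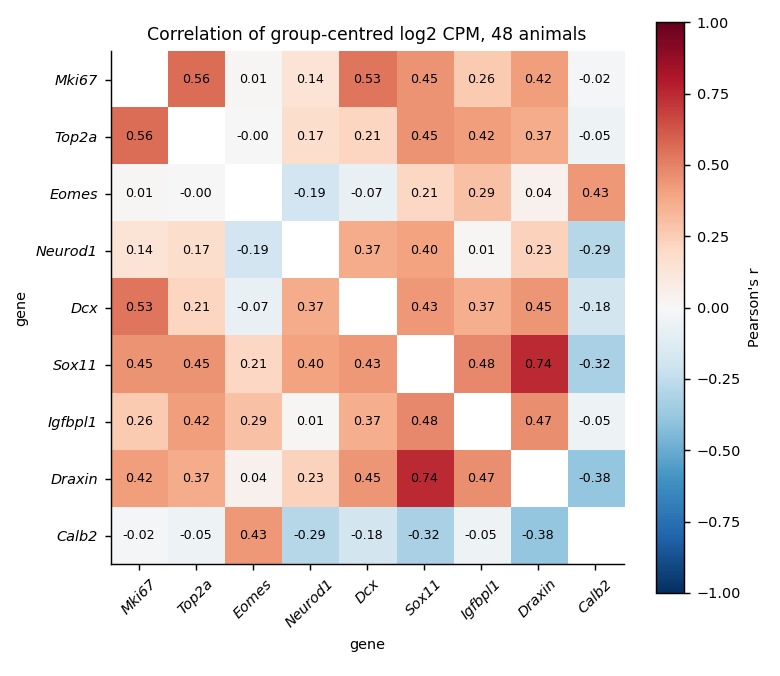
Pearson's r of group-centred log2 CPM between the 9 genes over 48 animals, from -1 (blue) to 1 (red). Sox11 and Draxin, at 0.74, and Mki67 and Top2a, at 0.56, have the highest values, and the row of Calb2 is mostly at or below 0.

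Some genes followed measures of what tissue or RNA the library held, over 171 relations of a gene with a list mean or a library measure. Calb2 followed the mean of 8 thalamus genes (r = 0.86, rho = 0.86, adjusted permutation p = 0.00034 for both, the smallest the permutations can give), with r = 0.87 without the 2 farthest animals, 0.87 in males and 0.83 in females. It also followed mossy cell genes (r = 0.61, rho = 0.59, adjusted permutation p = 0.00049 and 0.00043), at 0.61 without the 2 farthest animals, 0.87 in males and 0.26 in females. Its r was 0.61 with meninges genes (rho = 0.62, adjusted permutation p = 0.00034 and 0.00043), 0.54 with Cajal-Retzius cell genes (rho = 0.63, adjusted permutation p = 0.00222 and 0.00043), 0.47 with endothelial genes (rho = 0.45, adjusted permutation p = 0.00959 and 0.0162) and 0.43 with choroid plexus genes (rho = 0.40, adjusted permutation p = 0.0170 and 0.0314). With interneuron genes its r was -0.69 (rho = -0.65, adjusted permutation p = 0.00034 for both), at -0.59 without the 2 farthest animals, -0.66 in males and -0.72 in females. Calb2 also ran against intermediate progenitor genes (r = -0.47, rho = -0.44, adjusted permutation p = 0.00812 and 0.0162). With dentate granule neuron genes its r was -0.44 (rho = -0.41, adjusted permutation p = 0.0123 and 0.02565). Its r was 0.17 with immature neuron genes, 0.40 with niche signals and -0.40 with microglia genes. Calretinin marks young granule neurons, but also mossy cells, a class of interneurons and many neurons of the midline thalamus, and the share of each in these levels was not measured.

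Neurod1 followed the 14 genes of mature granule neurons (r = 0.76, rho = 0.72, adjusted permutation p = 0.00034 for both), with r = 0.76 without the 2 farthest animals, 0.74 in males and 0.79 in females. It ran against the ribosomal protein genes at r = -0.63 (rho = -0.66, adjusted permutation p = 0.00034 for both), at -0.59 without the 2 farthest animals, -0.62 in males and -0.63 in females, and at -0.68 without the tilted libraries. With neural stem cell genes Neurod1 had r = -0.44 (rho = -0.45, adjusted permutation p = 0.0123 and 0.0154). With intermediate progenitor genes it had r = 0.44 (rho = 0.42, adjusted permutation p = 0.0129 and 0.0203). The share of progenitors and of mature granule neurons in the level of Neurod1 was not measured. Dcx followed the transcript length slope (r = 0.61, rho = 0.66, adjusted permutation p = 0.00049 and 0.00034), at 0.50 without the 2 farthest animals, 0.74 without the tilted libraries, 0.27 in males and 0.79 in females. Neurod1 (r = 0.51, adjusted permutation p = 0.00404), Mki67 (r = 0.45, adjusted permutation p = 0.00959) and Sox11 (r = 0.42, adjusted permutation p = 0.0203) also followed the slope. The exons of Dcx sum to 12.65 kilobases and those of Neurod1 to 2.729, and Top2a, with 9.013, had an r of 0.13. Top2a followed the 33 cell division genes at r = 0.56 (rho = 0.45, adjusted permutation p = 0.00085 and 0.0162), at 0.53 without the 2 farthest animals, 0.74 in males and 0.43 in females, whereas Mki67 had r = 0.30 with them. Dcx had r = 0.12 with the immature neuron list, which includes the mature-neuron gene Neurod2 and which Neurod1 followed at 0.54. Eomes followed mossy cell genes at r = 0.50 (rho = 0.46, adjusted permutation p = 0.00447 and 0.0122). That r was 0.38 without the 2 farthest animals, 0.59 in males and 0.35 in females. With the intermediate progenitor genes Eomes had r = -0.04. With the log2 total count of the library the highest r was 0.30, for Neurod1 (rho = 0.39, adjusted permutation p = 0.128 and 0.0306), and the other genes were between -0.20 and 0.00.

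**Figure D5:**
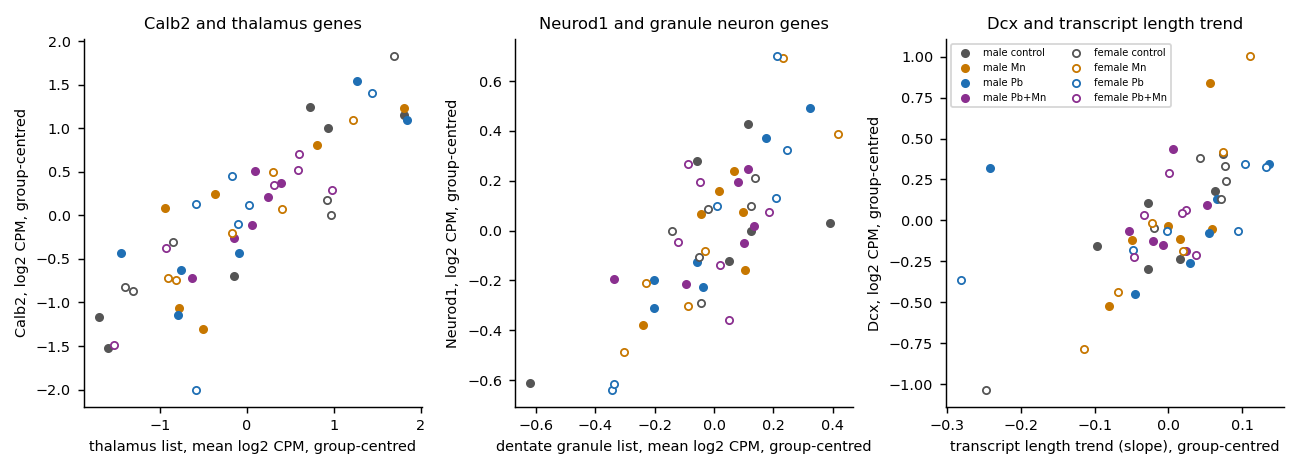
Group-centred log2 CPM of Calb2, Neurod1 and Dcx (vertical axes) against the mean of the thalamus genes, the mean of the dentate granule neuron genes and the transcript length slope (horizontal axes) in 48 animals, males filled and females open, coloured by exposure. Points rise from left to right in each panel, with r of 0.86, 0.76 and 0.61.

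The genes of most similar pattern were taken as the 3 of highest r among 13104 named genes over the 48 animals, as a description. For Calb2 they were Zic4 (r = 0.93) and Zic1 (0.91), zinc finger factors, and Tcf7l2 (0.89), a Wnt pathway factor that is in the thalamus list. For Igfbpl1 they were the protease gene Htra4 (0.84), the amino acid transporter Slc38a5 (0.83) and Olfm4 (0.81). For Top2a they were Racgap1 (0.60), a gene of cytokinesis, Kctd15 (0.60) and Rrm2 (0.58), a subunit of ribonucleotide reductase, with Racgap1 and Rrm2 both in the cell division list. Those of Mki67 were Slc7a2 (0.65), Hsd17b7 (0.64) and Rps6ka3 (0.63), and those of Eomes Lbhd2 (0.71), Ebf3 (0.67) and Adgrd1 (0.66). Dcx had Ncam2, a cell adhesion gene, at 0.80, with Mob1b (0.80) and Rel (0.79). Sox11 had Arhgef7 (0.84), Ppm1h (0.83) and Zmiz1 (0.82), Neurod1 had Mkrn1 (0.82) and Ctdp1 (0.81) among its 3, and Draxin had Spred1, Ubxn2b and Ccny at 0.73, 0.73 and 0.71.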

How the data were processed

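The data are whole-number read counts per gene, unnormalized, in 1 table of 48 hippocampal libraries as deposited by the authors. Libraries were made from total RNA with the Illumina Stranded mRNA Prep kit, per the labels' protocols. The tools are edgeR and limma in R 4.4.2, featureCounts 2.0.6, STAR 2.7.10b and Trim Galore 0.6.9, with genome build GRCm39, per the submitters' processing notes. Settings for strand and shared reads are not given in the sources used here.

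Groups came from the sex and treatment labels. Counts were tested with edgeR 4.0.16 in R 4.3.3 (glmQLFit, glmQLFTest, two-sided, TMM, filterByExpr, all 48 libraries in 1 fit, 40 residual degrees of freedom), with Benjamini-Hochberg adjustment over 16360 genes at 0.05. Each SE was taken from the log2 fold change and its F statistic, so the 95% intervals are approximate. CPM uses TMM-scaled totals, log2 CPM a prior count of 2, and correlations 100000 permutations. No library was counted as a repeat, since the smallest chi-square per degree of freedom between libraries of a group was 8.90. Symbols were found for 51884 identifiers, which held 99.52% of counts. Exon lengths came from GENCODE M21, a GRCm38 annotation, and promoters from RefSeq GRCm38.p6, so neither matches the build of the counts. The transcript length slope used 10206 genes.

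The genes, lists and motifs were chosen with earlier results of these data known. All 9 genes were named in each comparison, and at most the 3 genes of smallest p from any other list. For Neurod1, 1 of the 3 genes of most similar pattern is not reported here. Alternatives were DESeq2 1.42.0, limma 3.58.1 voom with and without library weights, RLE normalization, no count filter, only the groups compared, a replicate block, the transcript length slope or granule neuron genes as a covariate, and leaving out each library. Leaving out the 3 tilted libraries together was added after seeing the data. The edgeR and permutation code was tested on simulated data.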

Additional observations from a re-analysis of the deposited data

Results flagged for a closer look

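Within groups of 6 animals, 8 of 72 combinations of a gene and a group had an animal separated from the rest by a gap above Dixon's 95% critical value for 6, and all 8 were high. Chance gives about 1 in 20 such groups, and over all genes tested 9.17% of combinations had such an animal (7.35% a high one), against 11.1% here. Igfbpl1 accounted for 3 of them: male control 1 at 8.82 CPM (the others from 2.54 to 3.96), male Mn 4 at 12.4 CPM (2.63 to 4.27) and male Pb 6 at 9.78 CPM (2.02 to 3.68). Male control 1 was also apart for Top2a at 3.40 CPM (1.21 to 1.73), and male Mn 4 for Dcx at 18.7 CPM (7.18 to 10.1). Male Pb 4 was apart for Eomes at 2.98 CPM (0.0945 to 0.434), female control 5 for Calb2 at 151 CPM (the lowest at 23.2 CPM) and female Pb+Mn 6 for Sox11 at 28.3 CPM (19.9 to 22.9). The source of these high values was not tested.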

How the results depend on the processing

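None of the 9 genes passed the adjusted threshold in any of the 19 comparisons, nor in any of the 583 refits of a comparison under 58 alternatives. Fits that left out 1 library covered only the comparisons using its group (396 refits), and fits of only the groups compared covered 16, with Eomes not tested in 2 of those. The smallest adjusted p of any of them was 0.115, for Igfbpl1 in the sex average with limma voom and library weights. In the lead average, Top2a kept an unadjusted p under 0.05 in all 9 settings that left no library out alone (0.26 to 0.32), Dcx in 7 of 9 (-0.27 to -0.17) and Igfbpl1 in 6 of 9 (-0.51 to -0.34). The count of all genes past the adjusted threshold in that average was 0, but 4 with DESeq2, 3 with no count filter, 3 with the transcript length slope and 1 with the granule neuron genes as covariate, and 4 without female control 1. The 36 correlations include pairs that did not pass the threshold with all animals, and only passing pairs could be lost. Of the passing pairs, 15 in males alone, 10 in females alone and 6 after adjustment for the transcript length slope no longer passed. In each sex alone, at 24 animals a sex, more of the passing pairs were lost than kept. The replicate numbers are shared by all groups. Deviations of same-numbered animals had correlations from -0.38 to 0.49 over 168 pairs, with a median of 0.03. Animals of unlike number were not compared, so whether the numbers pair the animals was not settled. With the replicate block the lead averages were -0.23 for Dcx, -0.43 for Igfbpl1 and 0.26 for Top2a, and 0 of the 9 genes passed. Low counts limit Mki67, Top2a, Eomes and Draxin, and litter, exposure and cage cannot be told apart with these labels.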
